A study of Mus musculus with 7 samples.

Results

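The 9 genes described here mark neural stem and progenitor cells and the oligodendrocyte lineage: Sox2, Pou3f2, Nes, Prom1, Olig1, Olig2, Sox10, Cspg4 and Gpr17. They were taken by gene symbol, and all 9 were found among the 19257 genes of the deposited table of normalized counts. The table comes from bulk tissue RNA-Seq of endpoint mouse brain tumors, 1 library per brain, with 3 libraries of the 3xCR group (replicates 2, 3 and 4) and 4 of the GPC6 group (replicates 1 to 4). 3xCR tumors (3xCr in the labels, with the genotype control) arose after progenitor cells lining the ventricles were electroporated in utero with CRISPR-Cas9 guides to tumor suppressors that include Trp53 and Nf1. GPC6 tumors carried the same edits and also overexpressed GPC6, a heparan sulfate proteoglycan of the cell surface, from a piggyBAC transposon whose promoter is not given in the sources used here, and the transposon system also labeled cells with GFP. Females and males of CD-1 and C57BL/6 backgrounds were included, tumor tissue was dissected under fluorescence microscopy, and the sources used here do not give the background, age or sex behind each library. No brain without guides was among the libraries analysed here.

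Neural stem cells of the developing brain give rise first to neurons and later to glia, and oligodendrocyte precursor cells (OPCs) are the dividing glial progenitors that mature into myelinating oligodendrocytes. Sox2 and Pou3f2 (also called Brn2) are transcription factors of stem and progenitor cells, Nes encodes the intermediate filament nestin, and Prom1 encodes prominin-1 (CD133), a membrane protein of stem cells that is also made by ependymal cells. Olig1, Olig2 and Sox10 are transcription factors of the oligodendrocyte lineage, of which Olig2 specifies OPCs and Sox10 drives their maturation. Cspg4 encodes the proteoglycan NG2 of OPCs, which pericytes carry as well, and Gpr17 is a receptor of precursors that have begun to differentiate. Gliomas are known for re-expressing these programs, and SOX2, POU3F2, SALL2 and OLIG2 are known as a set of factors that maintains stem-like cells of human glioblastoma.

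RefSeq promoter windows of 300 bases (250 before and 50 after a gene's start, build GRCm38.p6) were at hand for 6 of the 9 genes, Sox2, Nes, Pou3f2, Prom1, Cspg4 and Olig2. The windows are placed on RefSeq starts, which for Olig2, Cspg4 and Sox2 differ from the GENCODE starts printed with the genes, and the Sox2 window ends before its GENCODE start. The windows of these 3 genes are shown as those of a lineage regulator, a precursor surface protein and a stem cell factor whose profiles over the libraries are compared further on. Searches were made on both strands for CANNTG, the E-box bound by basic helix-loop-helix factors such as Olig2, and for ACAAAG or ACAATG, letters that SOX factors bind, and capitals below mark the matches. The windows lie at chr16:91225300-91225599 on the plus strand for Olig2, at chr9:56864854-56865153 on the plus strand for Cspg4 and at chr3:34649745-34650044 on the plus strand for Sox2.
Olig2: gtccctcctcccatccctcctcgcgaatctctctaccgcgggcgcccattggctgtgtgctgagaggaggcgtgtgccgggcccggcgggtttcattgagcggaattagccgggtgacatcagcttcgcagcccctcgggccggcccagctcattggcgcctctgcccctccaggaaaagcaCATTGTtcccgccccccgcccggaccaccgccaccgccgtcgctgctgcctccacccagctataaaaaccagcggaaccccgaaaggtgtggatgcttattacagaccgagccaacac
Cspg4: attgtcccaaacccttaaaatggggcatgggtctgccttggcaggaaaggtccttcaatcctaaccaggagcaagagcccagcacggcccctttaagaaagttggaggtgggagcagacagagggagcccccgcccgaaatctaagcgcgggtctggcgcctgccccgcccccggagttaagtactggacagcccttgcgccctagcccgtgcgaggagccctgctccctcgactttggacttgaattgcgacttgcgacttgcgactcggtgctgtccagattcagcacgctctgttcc
Sox2: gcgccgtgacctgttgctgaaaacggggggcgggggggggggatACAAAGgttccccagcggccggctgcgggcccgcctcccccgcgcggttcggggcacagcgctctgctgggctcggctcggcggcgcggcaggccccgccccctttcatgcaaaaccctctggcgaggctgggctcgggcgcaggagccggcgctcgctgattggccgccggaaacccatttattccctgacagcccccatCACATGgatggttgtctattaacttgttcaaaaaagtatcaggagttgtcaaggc
The Olig2 window held 1 SOX match, ACAATG on the opposite strand, and 0 E-boxes, the Cspg4 window held 0 of either, and the Sox2 window held 1 of each, with no overlap between matches of different kinds. Among the windows of the other members, 1 of the 2 for Prom1 held 1 E-box, and those of Nes and Pou3f2 held 0 of either. Of all 32851 promoter windows of this length, 72.3% held an E-box and 28.6% a SOX match, so that matches of these kinds are common. The GC content was 65.0% for Olig2, 60.0% for Cspg4 and 66.3% for Sox2, against a median of 52.7% over all windows. These matches describe letters in the windows and no binding was measured.

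Values are normalized counts, the reads on a gene after division by the library's size factor, and they carry no correction for gene length. Reads counted on genes ranged from 7197692 to 18879762 per library with a median of 10566182, and the 9 genes had between 45 and 32760 reads in a library. A count of 0 would allow between 1.64 and 4.64 normalized counts, which covers counting error only, and no member came near it. Gpc6, the overexpressed gene, had 217, 226 and 126 normalized counts in the 3xCR libraries 2, 3 and 4 and 675, 263, 3434 and 5084 in the GPC6 libraries 1 to 4, and the library labelled GPC6 replicate 2 was thus close to the 3xCR libraries. GPC6 replicate 1 stood apart in composition, with 130 normalized counts of the proliferation gene Mki67 against 950 to 1876 in the other 6 libraries. Where leaving out 1 of these libraries moved the fold change of a member by over 1.5 times or turned its direction, that value is given beside it. Fold changes of other genes and medians of marker lists are given with all libraries only, and their dependence on these libraries is not given. Bulk RNA cannot tell fewer cells of a type from less RNA per cell.

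Between the groups, none of the 9 genes differed beyond the spread among tumors, whereas single tumors differed from each other by 2.18-fold for Prom1 to 7.04-fold for Gpr17. The groups overlapped for 9 of the 9 genes, whereas they did not overlap for 6.32% of the 14782 genes tested, 2.8% with GPC6 higher and 3.52% with GPC6 lower. In limma's test on log2(normalized count + 1), 0 members were below an adjusted p of 0.05, where the percentage over all genes tested was also 0, and 0 members were below an unadjusted p of 0.05, against 4.66% of all genes (2.74% with GPC6 higher and 1.92% with GPC6 lower). On the recovered reads, edgeR, DESeq2 and voom likewise placed 0 members below an unadjusted p of 0.05, against 6.7%, 12.1% and 3.38% of all genes, and below an adjusted p of 0.05 the percentages of all genes were 0, 0.0609 and 0. With library weights, a limma fit that gives less weight to libraries far from their group, 34.5% of all genes were below an unadjusted and 13.3% below an adjusted p of 0.05, and 0 members were. The median over the 9 members of the log2 fold change (GPC6 minus 3xCR) was 0.032, and over all genes tested it was -0.019.

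Spread among tumors of the same group was wide for these genes. The SD of log2 values within groups was larger than the median of the genes tested (0.50) for 8 of the 9 members. It was 1.25 for Gpr17, which 11.4% of the genes tested exceeded, 0.90 for Olig2, 0.87 for Sox10 and 0.86 for Olig1. Prom1 had the smallest, 0.46, which 54.3% of genes exceeded.

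**Figure D1:**
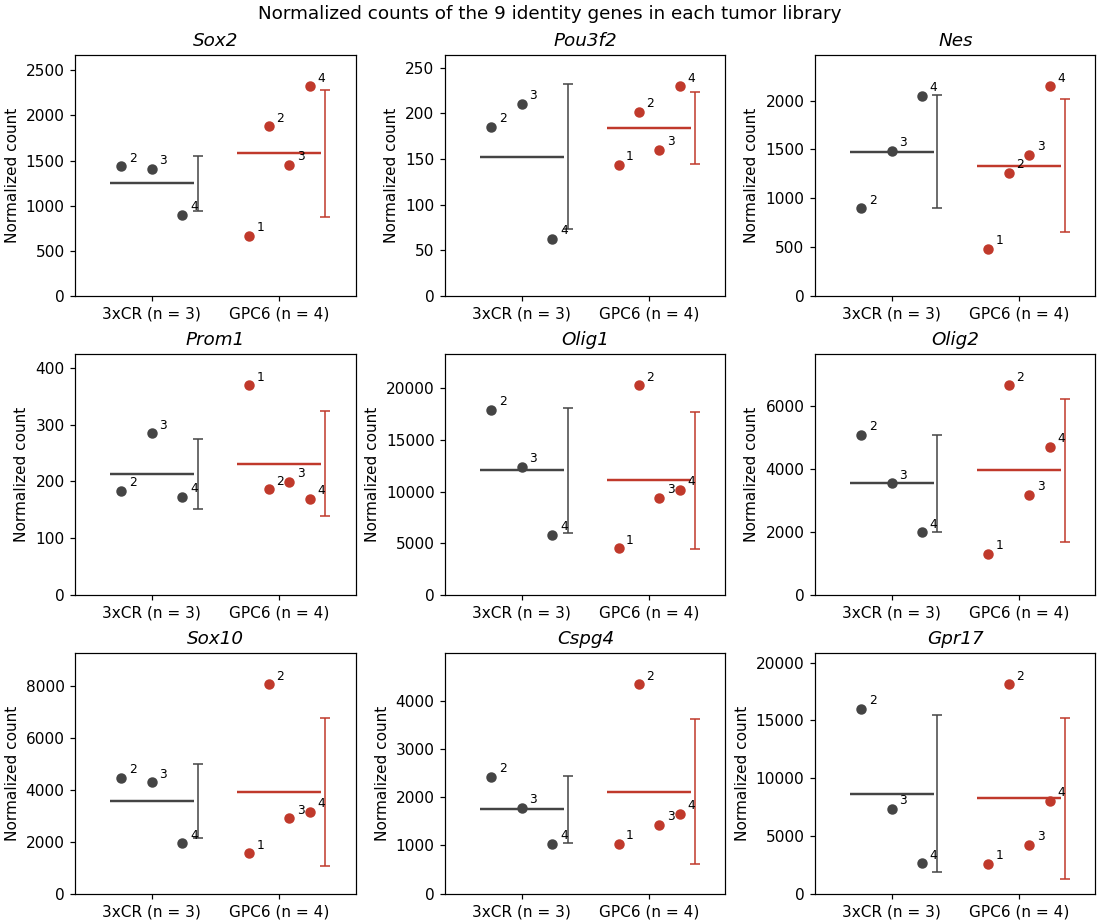
Normalized counts (linear axes from 0) of the 9 genes in the 3 3xCR and 4 GPC6 libraries. Each point is 1 tumor with its replicate number, horizontal lines are group means and error bars are 1 SD; the groups overlap in every panel, and GPC6 replicate 2 is the highest library for Olig1, Olig2, Sox10, Cspg4 and Gpr17.

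Sox2, on the plus strand of chromosome 3 from 34650405 to 34652461 (GRCm38), had normalized counts of 1438, 1409 and 899 in the 3xCR libraries 2, 3 and 4 and of 668, 1880.1, 1455 and 2323 in the GPC6 libraries 1 to 4. GPC6 replicates 2, 3 and 4 lay above all 3xCR libraries and GPC6 replicate 1 lay below them all. The means were 1249 ± 303 (SD, n = 3) in 3xCR and 1581 ± 705 (SD, n = 4) in GPC6 tumors, and the log2 fold change was 0.23 (standard error 0.43, 95% confidence interval -0.76 to 1.23, limma with Benjamini-Hochberg adjustment, adjusted p = 0.881). Without GPC6 replicate 1 the log2 fold change was 0.60 (limma unadjusted p = 0.063, adjusted p = 0.905), without GPC6 replicate 2 it was 0.10, and without GPC6 replicate 4 it was 0.0013. Sox2 lies inside the noncoding gene Sox2ot on the same strand, with 0 exonic bases shared, and Sox2ot had 151 to 433 normalized counts.

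Pou3f2, on the minus strand of chromosome 4 from 22482780 to 22488366, had the fewest reads of the set. Its normalized counts were 185, 210.2 and 62.2 in the 3xCR libraries 2, 3 and 4 and 144, 201.5, 159.7 and 229 in the GPC6 libraries 1 to 4. The 3xCR range enclosed all GPC6 libraries but the highest. The log2 fold change of 0.42 was the farthest from 0 among the members (standard error 0.45, 95% confidence interval -0.62 to 1.47, limma adjusted p = 0.798), and 40.8% of all genes tested had a larger absolute value. It rested on the low 3xCR replicate 4, as the log2 fold change without that library was -0.13.

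Nes, on the plus strand of chromosome 3 from 87971078 to 87980451, had normalized counts of 896, 1487 and 2049.8 in the 3xCR libraries 2, 3 and 4 and of 482, 1261, 1447 and 2145 in the GPC6 libraries 1 to 4. The 3xCR range lay inside the GPC6 range, with GPC6 replicate 1 below and GPC6 replicate 4 above all 3xCR libraries. The means were 1478 ± 577 (SD, n = 3) and 1334 ± 683 (SD, n = 4), a log2 fold change of -0.25 (standard error 0.51, 95% confidence interval -1.45 to 0.94, limma adjusted p = 0.891), which was 0.17 without GPC6 replicate 1. In 3xCR replicate 4, where the oligodendrocyte lineage genes were low, Nes was the second highest of the 7 libraries. Nestin is also made by dividing endothelial cells and pericytes, and the summed markers of pericytes and smooth muscle (11 genes, 4398 normalized counts) and of endothelium (10 genes, 3941) were the highest of all libraries in 3xCR replicate 4. By list score, in which genes count equally, the pericyte list was also highest there (0.45), but the endothelial list was highest in GPC6 replicate 3 (0.48, against 0.23 in 3xCR replicate 4), and the part of these cells in the Nes values was not tested.

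Prom1, on the minus strand of chromosome 5 from 43993620 to 44102032, had 183, 285 and 173 normalized counts in the 3xCR libraries 2, 3 and 4 and 369, 186, 199.6 and 169.8 in the GPC6 libraries 1 to 4. It was the only member with its highest value in GPC6 replicate 1, the library in which 6 of the other 8 were lowest. GPC6 replicate 1 was also the lowest library for 31.3% of all genes tested. The log2 fold change was 0.078 (standard error 0.35, 95% confidence interval -0.72 to 0.88, limma adjusted p = 0.957) and -0.17 without that library, and it was 0.16 without GPC6 replicate 2. GPC6 replicate 1 and 3xCR replicate 3, with the 2 highest values of Prom1, also had the highest sums of the 8 ependymal markers. The sums were 801 and 503 normalized counts, against 92.9 to 331 in the other 5 libraries. The choroid plexus list score was highest in the same libraries too (2.78 and 2.04), with 1.08 in 3xCR replicate 4, where Prom1 was 173. Whether ependymal or choroid plexus cells contributed was not tested. The ependymal sum ranged from 274 to 503 in 3xCR and from 92.9 to 801 in GPC6 tumors, with Tmem212 and Pifo at 0 in some libraries. Exons of Prom1 share 424 bases with an antisense gene, Gm16401, and the counting is not stated to use strand.

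Olig1 and Olig2 are neighbours on the plus strand of chromosome 16, from 91269772 to 91271933 and from 91225457 to 91228677, 41094 bases apart. Olig1 had 17956, 12405 and 5829 normalized counts in the 3xCR libraries 2, 3 and 4 and 4521, 20309.8, 9417 and 10204 in the GPC6 libraries 1 to 4. Olig2 had 5088, 3540.3 and 1986 in the same 3xCR libraries and 1297, 6658, 3172 and 4707 in the GPC6 libraries. Both genes were highest in GPC6 replicate 2, next in 3xCR replicate 2 and lowest in GPC6 replicate 1, so that high and low tumors occurred in both groups. The log2 fold changes were -0.17 for Olig1 (standard error 0.57, 95% confidence interval -1.49 to 1.14, limma adjusted p = 0.939) and 0.032 for Olig2 (standard error 0.57, interval -1.30 to 1.36, limma adjusted p = 0.989). Without GPC6 replicate 1 the log2 fold changes of Olig1 and Olig2 were 0.20 and 0.49, and without GPC6 replicate 2 they were -0.53 and -0.30. Exons of Olig1 share 157 bases with the noncoding gene Gm15966 on the opposite strand.

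Sox10, on the minus strand of chromosome 15 from 79154908 to 79165240, had 4453, 4288 and 1931 normalized counts in the 3xCR libraries 2, 3 and 4. In the GPC6 libraries 1 to 4 it had 1553, 8050.02, 2898 and 3152, so 1 GPC6 library stood above all others and 1 below. The mean normalized counts were 3558 ± 1411 (SD, n = 3) in 3xCR and 3913 ± 2846 (SD, n = 4) in GPC6 tumors, higher in GPC6, whereas the log2 fold change, the difference of mean log2 values, was -0.026 (standard error 0.56, 95% confidence interval -1.32 to 1.27, limma adjusted p = 0.991). Without GPC6 replicate 2, the library with Gpc6 near the 3xCR level, the log2 fold change was -0.46, and without GPC6 replicate 1 it was 0.33.

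Cspg4, on the plus strand of chromosome 9 from 56865033 to 56899870, had 2427, 1780.4 and 1030.4 normalized counts in the 3xCR libraries 2, 3 and 4 and 1032, 4340.2, 1434 and 1659 in the GPC6 libraries 1 to 4. GPC6 replicate 2 lay above every other library, and the other 3 GPC6 libraries lay within the 3xCR range. The log2 fold change was 0.14 (standard error 0.51, 95% confidence interval -1.05 to 1.32, limma adjusted p = 0.947) and it became 0.40 when GPC6 replicate 1 was left out and -0.29 when GPC6 replicate 2 was. Pericytes and smooth muscle cells also make NG2. Their marker list summed to 1718 to 4398 normalized counts in 3xCR and 1441 to 2158 in GPC6 libraries. The sum was highest in 3xCR replicate 4 and lowest in GPC6 replicate 1, the libraries with the lowest Cspg4 (1030.4 and 1032). The part of these cells in the Cspg4 values was not tested.

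Gpr17, on the minus strand of chromosome 18 from 31942997 to 31949636, varied most. Its normalized counts were 15999, 7335 and 2651 in the 3xCR libraries 2, 3 and 4 and 2577, 18129, 4212 and 8063 in the GPC6 libraries 1 to 4. Each group held 1 library far above its others, replicate 2 in both. The means were 8661 ± 6772 (SD, n = 3) and 8245 ± 6979 (SD, n = 4), a log2 fold change of -0.10 (standard error 0.79, 95% confidence interval -1.92 to 1.72, limma adjusted p = 0.976), so that neither a 3-fold rise nor a 3-fold fall lies outside the interval, which runs from 0.264-fold to 3.29-fold. Without GPC6 replicate 1 its log2 fold change was 0.33, and without GPC6 replicate 2 it was -0.61. Gpr17 overlaps Lims2 on the opposite strand and shares 188 exonic bases with it. Lims2 was highest in 3xCR replicate 3 (2577 normalized counts), unlike Gpr17, and next in GPC6 replicate 2 (1703), where Gpr17 was highest. It was lowest in GPC6 replicate 1 (355) and 3xCR replicate 4 (442), where Gpr17 was lowest too. Whether the overlap contributed to the Gpr17 values was not tested.

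**Figure D2:**
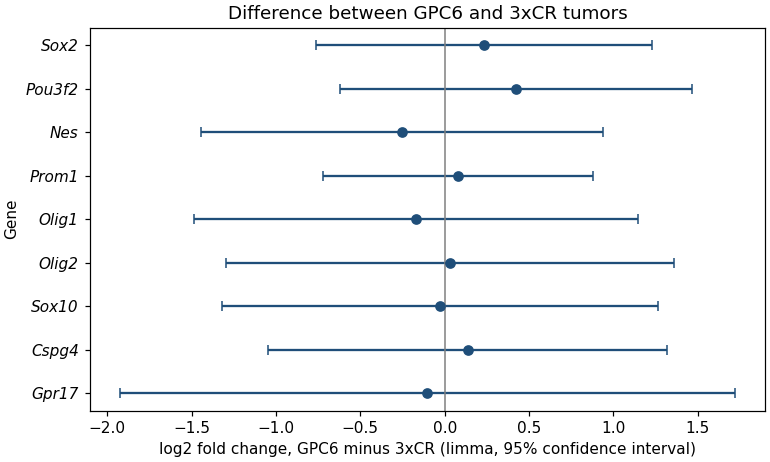
Difference in mean log2 value (x axis, log2 fold change, GPC6 minus 3xCR) for each of the 9 genes (y axis) from the limma fit. Points are estimates and bars 95% confidence intervals, from 3 and 4 libraries; all 9 intervals include 0, the widest being that of Gpr17 (-1.92 to 1.72).

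Normalized counts were also compared per kilobase of exon, so that genes of different length can be set side by side. The length joins all annotated exons of a gene and can exceed that of the transcript made. On this scale Olig1 was the most abundant member in 7 of 7 libraries. Its mean normalized count per kilobase was 5579.8 ± 2808 (SD, n = 3) in 3xCR and 5140.1 ± 3065 (SD, n = 4) in GPC6 tumors. Gpr17, Olig2 and Sox10 followed with means over all 7 libraries of 1621, 1493 and 1233 per kilobase, and these neighbours did not differ beyond their spread, as Gpr17 exceeded Olig2 in 3 of 7 libraries and Olig2 exceeded Sox10 in 5 of 7. Sox2 came next with 699 per kilobase and was below Sox10 in 6 of 7 libraries. Nes and Cspg4 averaged 217 and 164 per kilobase and changed places between libraries, Nes being higher in 4 of 7. Prom1 and Pou3f2 were the least abundant, at 31.2 and 30.5 per kilobase, and did not differ beyond their spread. By mean normalized count without regard to length, Olig1 lay above 99.5% of all genes tested and Gpr17 above 99.2%, while Prom1 and Pou3f2 lay above 40.5% and 34.3%.

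For the 5 genes of the oligodendrocyte lineage, GPC6 replicate 2 was the highest library for 5 of 5 and 3xCR replicate 2 the second, whereas GPC6 replicate 2 was the highest library for 12.2% of all genes tested. The likeness of 2 profiles was measured as the root-mean-square difference of their log2 values after each was centred on its mean over the 7 libraries, a description that rests on 7 points sharing depth and tissue. The closest pairs of members were Sox10 with Cspg4 (0.19), Sox10 with Olig1 (0.19) and Olig1 with Olig2 (0.23), and the least alike were Prom1 with Gpr17 (1.27). Gpr17 lay 0.40 to 0.48 from the other lineage genes. Sox2 lay closest to Olig2 among the members (0.34), nearer than Cspg4 to Olig2 (0.35), Pou3f2 to Sox2 (0.47) and Nes to Sox2 (0.59).

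**Figure D3:**
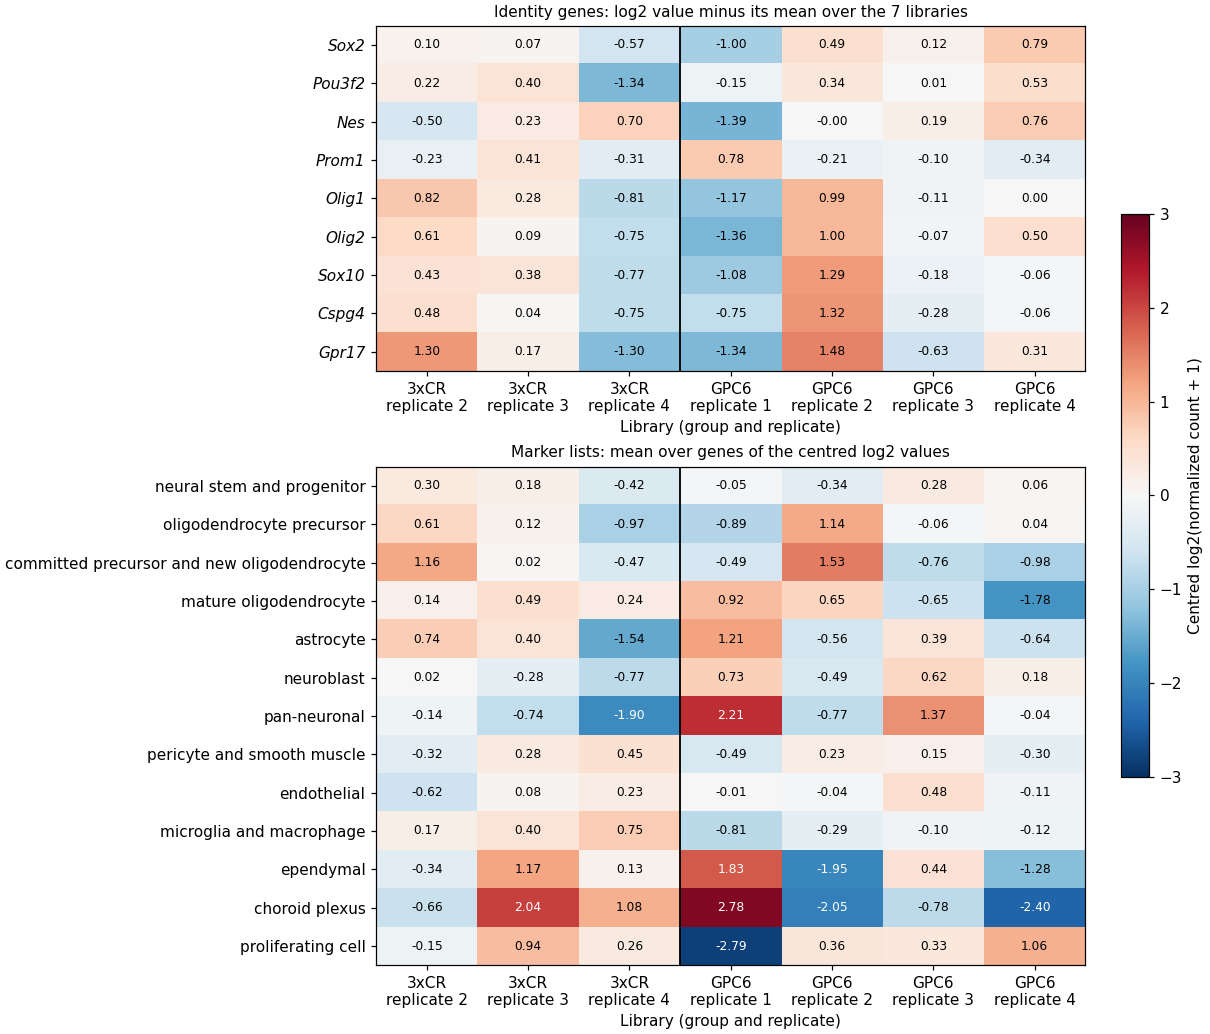
Heat maps over the 7 libraries (columns, group and replicate) of the log2(normalized count + 1) of each of the 9 genes minus its mean (upper panel) and of 13 marker list scores, the mean of such centred values over a list's genes (lower panel). Red is above and blue below the mean over libraries; the 5 oligodendrocyte lineage genes are red in replicate 2 of both groups and blue in 3xCR replicate 4 and GPC6 replicate 1, where Gpr17 reaches -1.30 and -1.34.

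Ratios within a library do not depend on its size factor. Olig1 had 2.17 to 3.53 times the normalized count of Olig2, a spread of 1.63-fold where the genes themselves spread 4.49-fold and 5.13-fold. Sox10 had 0.670 to 1.21 times the count of Olig2, with the 3xCR libraries at 0.875 to 1.21. Cspg4 per Olig2 was 0.477, 0.503 and 0.519 in the 3xCR libraries and 0.796, 0.652, 0.452 and 0.353 in the GPC6 libraries 1 to 4, so the 3xCR values sat inside a wider GPC6 range. Gpr17 per Olig2 was highest in replicate 2 of both groups, at 3.14 and 2.72, against 1.33 to 2.07 in the other 5 libraries. Nes per Olig2 spread 5.86-fold, from 0.176 in 3xCR replicate 2 and 0.189 in GPC6 replicate 2 to 1.03 in 3xCR replicate 4. Prom1 per Sox2 spread most of the 10 ratios looked at, 7.57-fold, from 0.0731 in GPC6 replicate 4 to 0.553 in GPC6 replicate 1. The groups overlapped in all 10.

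**Figure D4:**
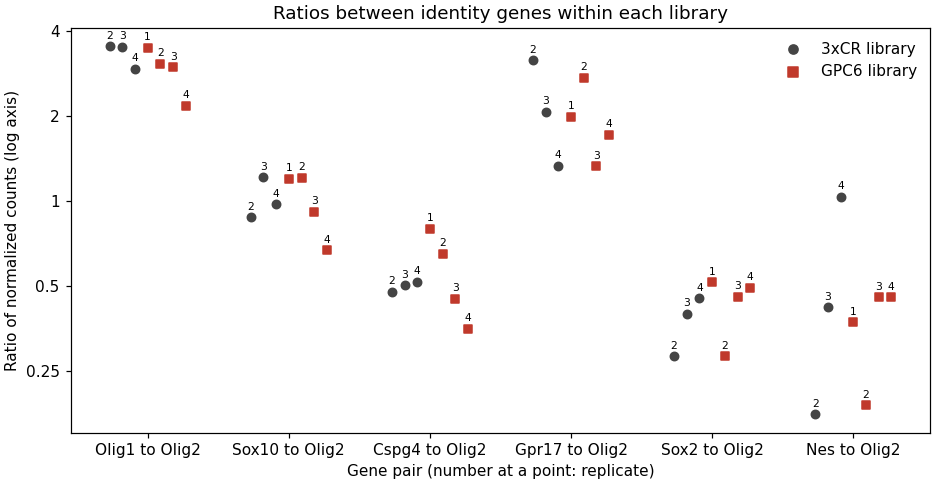
Ratio of the normalized counts of 2 genes within a library (log axis) for 6 gene pairs (x axis), 1 point per library with its replicate number, circles for 3xCR and squares for GPC6. Olig1 to Olig2 stays between 2.17 and 3.53, Nes to Olig2 runs from 0.176 to 1.03, and the groups overlap in each pair.

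Among all genes tested, those closest in profile to Sox10 were Mmp16, Cspg4 and Fchsd2 (root-mean-square differences of 0.17 to 0.19), those closest to Olig1 were Npas3, Cacng4 and Ppapdc1a (0.14 to 0.17) and those closest to Olig2 were Marcks, Ccnjl and Midn (0.17 to 0.20). Gpr17 was closest to Nkx2-2 (0.16), Prkcq (0.24) and Zfp488 (0.28), and Cspg4 to Tex15 (0.11), Ctnnal1 (0.16) and Nek3 (0.17). Sox2 was closest to Anp32e (0.084), Ube2cbp (0.14) and Phf6 (0.15), and Nes to Slc16a10 (0.15), Aprt (0.17) and Pabpc1 (0.18). Prom1 was closest to Pip4k2a, Xkr6 and Ocln (0.15 to 0.17) and Pou3f2 to Grin3b, Ttpa and Fam120c (0.13 to 0.16). Some of these have few reads, as Xkr6 had at most 24.7 and Grin3b at most 26.7 normalized counts, and with 7 libraries and 14782 genes close profiles are easily found.

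Other markers of the same cell states were taken from written lists. Of 24 further neural stem and progenitor genes, the mean log2 value was higher in GPC6 tumors for 13 and lower for 11, with a median log2 fold change of 0.13. By limma 0 of them passed an adjusted p of 0.05 and 1 an unadjusted p of 0.05, where 1.92% of all genes did so with GPC6 lower. That gene was Id3, a target of BMP signaling (log2 fold change -0.84, limma unadjusted p = 0.0070, adjusted p = 0.730). The most abundant was Vim, the intermediate filament vimentin, with 15450 ± 3826 normalized counts (SD, n = 3) in 3xCR and 8722 ± 3330 (SD, n = 4) in GPC6 tumors (-0.89 on the log2 scale, standard error 0.41, limma adjusted p = 0.730). The ends of the list were Sox1, a SOX factor of early neural progenitors (1.51, standard error 1.12, limma adjusted p = 0.736), and Tnc, the matrix protein tenascin C (-0.95, standard error 0.73, limma adjusted p = 0.741). Sox1 ran from 12.8 to 352 normalized counts within the GPC6 group, and the groups overlapped for all 3 of these genes.

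Of 20 further OPC genes, 12 had a higher and 8 a lower mean log2 value in GPC6 libraries, with a median log2 fold change of 0.17 and 0 below an unadjusted p of 0.05. Ptprz1, a receptor phosphatase of glial progenitors, was the most abundant, with 7037 ± 2868 (SD, n = 3) and 8865 ± 3844 (SD, n = 4) normalized counts, and Tnr, the matrix protein tenascin R, and Matn4, a matrilin of the matrix, had the largest and smallest log2 fold changes (0.85 and -0.62, limma adjusted p = 0.730 and 0.816). The OPC list score followed the members, with 0.61 and 1.14 in replicate 2 of 3xCR and GPC6 and -0.97 and -0.89 in 3xCR replicate 4 and GPC6 replicate 1. Summed over its genes, the list had 22727 to 66289 normalized counts in 3xCR and 27183 to 98037 in GPC6 libraries.

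Of 12 genes of committed precursors and new oligodendrocytes, the stage that Gpr17 marks, 11 had a lower mean log2 value in GPC6 libraries, with a median log2 fold change of -0.39 and 0 below an unadjusted p of 0.05. The most abundant was Bcas1, a protein of early myelinating cells, at 17524.5 and 24512 normalized counts in replicate 2 of 3xCR and GPC6 against 3182 to 6989 in the other 5 libraries. The ends of the list were Zfp488, a transcriptional co-regulator of Olig2 (0.11), and Rassf10 (-1.05). Mature oligodendrocyte genes had another order of libraries, with their lowest score (-1.78) in GPC6 replicate 4 and their highest (0.92) in GPC6 replicate 1: 16 of 18 had a lower mean log2 value in GPC6 libraries, with a median log2 fold change of -0.57 and 0 below an unadjusted p of 0.05. Mbp, the major myelin basic protein, had 44909 normalized counts in GPC6 replicate 1, where Olig1, Olig2, Sox10 and Gpr17 were lowest, and 3784 in GPC6 replicate 4. On the log2 scale its difference of -1.15 (standard error 0.87, limma adjusted p = 0.738) was the smallest of the list, and that of Tspan2, a tetraspanin of oligodendrocytes, was the largest (0.34).

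Markers of dividing cells and of neurons moved with the low values of GPC6 replicate 1. The score of 12 proliferation genes was -2.79 there and -0.15 to 1.06 in the other 6 libraries, and the score of 12 pan-neuronal genes was 2.21, against -1.90 to 1.37. In 3xCR replicate 4, the other library with low oligodendrocyte lineage genes, the proliferation score was 0.26, the pan-neuronal score was the lowest of all (-1.90) and the microglia and macrophage score was the highest (0.75). Summed over its 10 genes, the microglia and macrophage list had 43800.3 to 82576 normalized counts in 3xCR and 23143 to 42793 in GPC6 libraries, with no overlap between groups and no defining marker at 0. The part of tissue composition in the members' values was not tested.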

How the data were processed

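Bulk RNA-Seq of 3 3xCR and 4 GPC6 endpoint tumors was analyzed, with groups and replicate numbers from the sample titles. Per the labels and the study's methods, the authors made TruSeq Stranded mRNA libraries, aligned reads to mm10 with STAR 2.5.0a, counted them with Rsamtools and GenomicFeatures, and normalized with DESeq2 1.20.0. The values the authors deposited are a normalized signal per gene, that is reads divided by the library's size factor. Of 19282 entries, 25 whose names had become dates were left out (0.254% to 0.361% of reads), and 0 further columns per sample were present. All values (100%) were within 0.01 of whole multiples of the value of 1 read, and these recovered reads were used for alternatives.

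limma 3.58.1 (R 4.3.3, trended variance) was fitted to log2(normalized count + 1) of all 14782 genes whose mean reached 10, two-sided, with Benjamini-Hochberg adjustment. The fit and the count tests were also run on simulated data whose spread was set rather than taken from these tumors. No outcome of that run is given here. A fold change on this scale understates that of low genes. The 9 members and 13 marker lists (168 genes, all matched) were chosen with earlier results of these data known, so no set test was run and no p was adjusted over them. Named beside the members and Gpc6 were, per list, the genes of highest mean and of largest and smallest log2 fold change, and per member the 3 closest profiles. Id3, Mki67, Sox2ot, Gm15966, Gm16401, Lims2, Pifo and Tmem212 were named after values or overlaps had been seen. Exon lengths and coordinates came from GENCODE M21 (GRCm38, the same assembly as mm10). Each library is a separate brain, and p-values set the difference between the groups against the spread among tumors of the same group. No batch is named for the libraries. Alternatives used a pseudocount of 0.5 or 5, a filter at 50 or none, 2 other scalings, no variance trend, library weights, edgeR 4.0.16, DESeq2 1.42.0, voom, a replicate block and leaving out each library. One more, leaving out GPC6 replicates 1 and 2 together, was chosen after seeing the data.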

Additional observations from a re-analysis of the deposited data

Results flagged for a closer look

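Among the 4 GPC6 libraries a value is singled out where its gap to the nearest other library, over the range of the 4 (on the log2 scale for counts and ratios), exceeds Dixon's 95% critical value. Of 69 quantities examined, which share genes and libraries, 7 did so, where chance gives about 3.45. None was the level of one of the 9 genes. The ratio of Pou3f2 to Sox2 was 0.215 in GPC6 replicate 1, against 0.0988 to 0.110 in the other 3 and 0.0691 to 0.149 in 3xCR libraries. Rassf10, of the committed precursor list, had 328 normalized counts in GPC6 replicate 2, against 18.5 to 24.7 in the other 3 and 58.6 to 172 in 3xCR libraries. GPC6 replicate 1 had 2659 normalized counts of the astrocyte gene Agt (355 to 485 in the other 3), 11813 of the choroid plexus gene Ttr (10.9 to 31.9), 60.3 of the smooth muscle gene Tagln (237 to 293) and 218 of the microglial gene Aif1 (688 to 842). The endothelial list score was 0.48 in GPC6 replicate 3 and -0.11 to -0.013 in the other 3. The 3xCR group, with 3 libraries, was not examined in this way.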

How the results depend on the processing

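Under all 20 alternatives 0 of the 9 members were below an adjusted or an unadjusted p of 0.05, the smallest unadjusted p being 0.063 (Sox2 without GPC6 replicate 1, limma adjusted p = 0.905). Of the 9 directions only that of Sox2 was kept in all. Over all genes, 0 were called by limma, by edgeR, by voom and without any 1 library, against 9 by DESeq2 and 1962 with library weights. At an unadjusted p under 0.05 there were 689 in limma, 991 in edgeR, 499 in voom, 1793 in DESeq2, 5105 with library weights, 121 without 3xCR replicate 4, 377 and 1134 without 3xCR replicates 3 and 2, and 468, 1399, 384 and 1159 without GPC6 replicates 1, 2, 3 and 4. Log2 fold changes of the other sign were obtained with library weights for Cspg4 (-0.18), Olig2 (-0.096), Pou3f2 (-0.23) and Prom1 (-0.40), with an equal upper quartile for Olig2 (-0.013), and for Sox10 with an equal total (0.021), edgeR (0.12) and DESeq2 (0.15). Without GPC6 replicates 1 and 2 they were -0.093 for Cspg4, 0.33 for Nes and -0.18 for Prom1. With 1 library left out the log2 fold change ranged from 0.0013 to 0.60 for Sox2, -0.13 to 0.74 for Pou3f2, -0.57 to 0.17 for Nes, -0.17 to 0.30 for Prom1, -0.62 to 0.20 for Olig1, -0.33 to 0.49 for Olig2, -0.46 to 0.33 for Sox10, -0.29 to 0.42 for Cspg4 and -0.78 to 0.52 for Gpr17, and the median of the 9 from -0.29 to 0.35. The cause of these changes was not tested.

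Replicate numbers are shared by the groups. Deviations from the group means correlated across genes at -0.19, 0.12 and 0.30 for same-numbered libraries 2, 3 and 4. For libraries of different numbers in the 2 groups the correlation ran from -0.46 to 0.50. By chi-square per gene between reads, replicate 2 of both groups was the closest pair of libraries (44.7). The next pair was 3xCR replicate 3 with GPC6 replicate 4 (49.2). The number was not taken as a pairing, and whether same-numbered libraries share a batch was not tested. A fit with the replicate number as a block over the 6 libraries that share numbers called 0 genes and 0 members (688 genes at an unadjusted p under 0.05), and gave 0.33 for Gpr17, 0.17 for Nes, 0.20 for Olig1, -0.17 for Prom1 and 0.33 for Sox10, with a median of 0.33 over the members, the same estimates as without GPC6 replicate 1. With 3 against 4 libraries and this spread, the upper ends of the members' 95% intervals run from 1.84-fold (Prom1) to 3.29-fold (Gpr17).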

Other observations

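In GPC6 libraries the mean log2 value of the 12 pan-neuronal genes was higher for all 12 (median log2 fold change 1.62). By limma 2 of them (Snap25 and Nefm) were below an unadjusted p of 0.05 and 0 below an adjusted p of 0.05. Of all genes tested, 2.74% were below that unadjusted p with GPC6 higher. Snap25, a protein of synaptic vesicle fusion, had the largest (3.02) and Gap43, of growing axons, the smallest (0.17), and Snap25 ran from 708 to 20138 normalized counts within the GPC6 group. Among 11 neuroblast genes the median was 0.16. Dlx5, a homeobox factor of interneuron precursors, had 9.32, 6.51 and 0 normalized counts in the 3xCR libraries 2, 3 and 4 and 98.9, 9.88, 24.8 and 56.6 in the GPC6 libraries 1 to 4 (limma unadjusted p = 0.021, adjusted p = 0.730), while Igfbpl1 had the smallest log2 fold change (-0.93) and Tubb3, neuronal tubulin, the highest mean (0.39).

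In GPC6 libraries 9 of the 13 astrocyte genes had the higher mean log2 value (median 0.29), with Gfap most abundant (-0.35) and Agt and Aqp4 at the ends (1.18 and -0.63). All 12 proliferation genes had a lower mean log2 value (median -0.60), and 0 were below an unadjusted p of 0.05. They ran from Ccna2 (-0.28) to Birc5 (-1.10), with Top2a most abundant (-0.46). Only GPC6 replicate 1, with a score of -2.79, lay below the 3xCR libraries 2, 3 and 4 (-0.15, 0.94 and 0.26). GPC6 replicates 2, 3 and 4 (0.36, 0.33 and 1.06) lay within or above that range. All 10 microglia and macrophage genes had a lower mean log2 value (median -0.81), 5 of them below an unadjusted p of 0.05, where 1.92% of all genes were so, and 0 below an adjusted p of 0.05. They ran from Csf1r (-0.18) to Aif1 (-1.31), with Ctss most abundant (-0.78). The median was 0.37 for 10 endothelial genes (Slco1a4 1.05, Egfl7 -1.17, Cldn5 most abundant at -0.11). Flt1 and Egfl7 were below an unadjusted p of 0.05 in limma, in opposite directions, where 4.66% of all genes were so. For 11 pericyte and smooth muscle genes the median was -0.22 (Abcc9 0.71, Tagln -1.67). Medians were -0.62 for the 7 ependymal genes tested (Ccdc153 0.069, Mia -1.29, Foxj1 most abundant at -0.13) and -1.06 for 7 choroid plexus genes (Clic6 -0.68, Ttr -3.20). Ttr ran from 10.9 to 11813 normalized counts within the GPC6 group, the highest being GPC6 replicate 1. Mean normalized counts were instead higher in GPC6 than in 3xCR tumors for Ttr (2969 against 1736) and Clic6 (103 against 88.6). Genes named here at an unadjusted p under 0.05 outside the ends of their lists were chosen after their values were seen.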
